A study of Mus musculus with 19 samples.

Results

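Transcripts of 10 genes that mark microglia were followed in pools of dendrites cut from cultured mouse hippocampal neurons. The genes were Itgam, Csf1r, Ctss, Aif1, Cx3cr1, Trem2, Tyrobp, C1qa, C1qb and Cd68, taken from a fixed list of names, and they made up 10 of 18193 genes and 16 of 45037 probe sets on the array. Neurons were dispersed from the hippocampus of embryos at day 18 and kept in culture for 14 days without treatment. Dendrites were severed with a glass pipette, pooled over many cells, and their RNA was amplified in several rounds before it was hybridised to an Affymetrix expression array for the mouse. There were 5 Balb/c arrays, 2 with pools of 100 dendrites, 1 with 200 and 2 with 400. The 14 C57BL/6 arrays held 4 pools of 100, 5 of 200 and 5 of 400. Both are inbred strains, all pools are labelled as pyramidal neurons, and no allele or agent was added to either strain. Whether the pools of one strain were cut from different cultures or embryos is not stated, and p-values therefore cover pool-to-pool spread alone. An array is named here by strain, dendrites in the pool and replicate, as in Balb/c 200-1.

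Microglia are the resident macrophages of the brain. They arise outside the neural lineage, depend on signals through the CSF1 receptor for survival, sense neurons through receptors such as CX3CR1 and TREM2, and clear synapses and debris with the help of complement and lysosomal proteases. Microglia are known to be carried over in small numbers into dispersed brain cultures. The 10 genes thus report on RNA that neurons are not known for, in samples that were cut from neurons. In pools of this kind, fewer cells of a type and less RNA per cell cannot be told apart. The arrays were analysed as deposited log2 values, a scale on which a step of 1 is a doubling. Present and absent calls were not analysed here, so a value above background cannot be told from one at background, and the number of arrays sets the precision.

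Several features of the whole series touched the markers. On the log2 scale the difference of the median gene was 0.216 in favour of Balb/c over C57BL/6, so differences are given as measured and relative to that median. Values were written with up to 14 decimals for all 5 Balb/c arrays and for C57BL/6 100-1, 100-2, 200-1 and 400-1, and with up to 9 decimals for the other 10 C57BL/6 arrays. These are called the long and the short format. No source used here explains the difference in format, which was treated as a batch. Balb/c 200-1, C57BL/6 200-1 and C57BL/6 400-1 resembled each other across strains and are called the arrays between the strains. They correlated with each other at 0.849 to 0.929 over all genes. With the other 4 Balb/c and the other 12 C57BL/6 arrays, Balb/c 200-1 correlated on average at 0.678 and 0.763. The same averages were 0.762 and 0.750 for C57BL/6 200-1, and 0.671 and 0.773 for C57BL/6 400-1. The name is thus loose, as C57BL/6 400-1 was nearer to its own strain. Differences of the markers are also given without these 3 arrays. The arrays were picked from these same values, so larger differences and more calls without them follow in part from that choice. That fit is no independent check. The 3′ minus 5′ difference of the Actb control probe sets is a sign of how far the amplified RNA reaches from its 3′ end. It ran from -0.69 to 2.27 in Balb/c, with a median of 0.98. In C57BL/6 it ran from 1.17 to 5.56, with a median of 4.17. The same difference of the Gapdh control probe sets ran from 1.48 to 4.72 with a median of 3.37 in Balb/c and from 2.39 to 5.00 with a median of 3.25 in C57BL/6. Ranges of both control genes overlapped between the strains, while the Actb medians lay far apart and the Gapdh medians close together. Their part in the results was not tested.

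The sequences just before the start sites of Itgam and Ctss are shown because these genes were both higher in Balb/c and their promoters were at hand. PU.1, the product of Spi1, is a transcription factor of the macrophage lineage and binds purine-rich DNA with the core GAGGAA. Promoters came from RefSeq on assembly GRCm38.p6, whose reference strain is C57BL/6J, and 7 of the 10 markers matched an entry. The 250 bases before the start site were searched for GAGGAA on both strands, so that TTCCTC marks a match on the other strand. Capitals mark the matches. The window of Itgam is chr7:128062390-128062639 and that of Ctss is chr3:95526536-95526785, both on the plus strand.
Itgam: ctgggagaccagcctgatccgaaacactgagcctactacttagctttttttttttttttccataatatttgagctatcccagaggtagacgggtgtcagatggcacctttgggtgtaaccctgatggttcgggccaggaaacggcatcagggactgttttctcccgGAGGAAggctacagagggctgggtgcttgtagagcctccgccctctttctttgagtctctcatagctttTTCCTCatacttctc
Ctss: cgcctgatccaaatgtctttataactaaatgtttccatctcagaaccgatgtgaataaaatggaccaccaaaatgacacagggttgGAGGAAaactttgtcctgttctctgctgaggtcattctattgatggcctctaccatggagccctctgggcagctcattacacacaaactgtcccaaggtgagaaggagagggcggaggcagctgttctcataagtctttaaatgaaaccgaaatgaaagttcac

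The Itgam window held 2 matches, beginning 84 and 15 bases before the start site, and the Ctss window held 1 match, beginning 164 bases before it. Single matches lay in the windows of Aif1, C1qb, Cd68 and Trem2, and the Cx3cr1 window held 0. Of all 32851 promoter windows in the table, 23.3% held the core on either strand, against 6 of the 7 windows of markers. A match of 6 letters is a description of the sequence and not a bound site.

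The question of the strain comparison was whether RNA of microglial genes differed between dendrite pools of Balb/c and of C57BL/6. Itgam, Csf1r and Ctss were higher in Balb/c, by 1.01 to 1.52 on the log2 scale, which is 2.02-fold to 2.87-fold. None of the other 7 markers passed the test across genes, and Tyrobp, C1qa and C1qb had lower means in Balb/c. The count of 3 of 10 markers called lay near the background, since 32.5% of all genes were called between the strains (5910 of 18193, limma with Benjamini-Hochberg adjustment over all genes at 0.05). In the upward direction 3 of 10 markers were called beside 21.1% of all genes, and in the downward direction 0 of 10 beside 11.4%. The median difference of the 10 markers was 0.23, which is 0.02 above that of the median gene. The markers' median thus lay close to that of all genes, and single members lay from -1.12 (Tyrobp) to 1.31 (Itgam) around it.

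**Figure D1:**
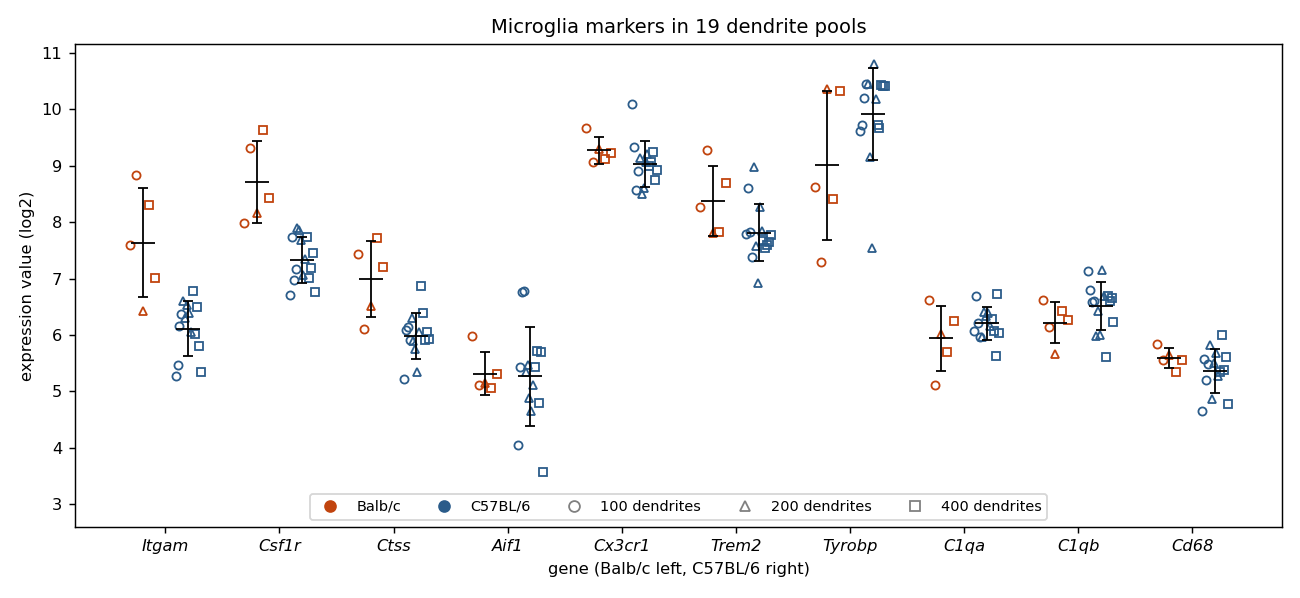
Log2 expression value (vertical axis) of each of the 10 markers in the 19 arrays, Balb/c left and C57BL/6 right for each gene. Points are arrays, their shape gives the dendrites in the pool, and bars give the mean ± SD of 5 Balb/c and 14 C57BL/6 arrays. All 5 Balb/c points of Csf1r lie above all C57BL/6 points, and those of the other 9 genes overlap.

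Among receptors, Itgam encodes CD11b, the alpha chain of complement receptor 3. It was measured with 1 probe set (1422046_at). Its values in Balb/c were 7.59 and 8.84 in the pools of 100 dendrites, 6.43 in the pool of 200, and 8.30 and 7.01 in the pools of 400. In C57BL/6 they ran from 5.27 to 6.78 with a median of 6.23. Of the 5 Balb/c arrays, 4 lay above every C57BL/6 array, and the exception was Balb/c 200-1. The mean was 7.64 ± 0.97 in Balb/c (SD, n = 5) and 6.11 ± 0.48 in C57BL/6 (SD, n = 14). The difference of 1.52 (SE 0.32, limma adjusted p = 0.0016) was 1.31 relative to the median gene. Blocking on the number format gave 1.61 (limma adjusted p = 0.0492), and without the 3 arrays between the strains it was 1.92 (limma adjusted p = 8.04e-05).

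Itgam was the 1 marker still called when number format was blocked, beside 1.92% of all genes called in that fit. Within C57BL/6 its mean was 6.03 ± 0.77 in the 4 arrays of the long format and 6.15 ± 0.37 in the 10 of the short format, a gap smaller than either SD. Within the 9 long-format arrays alone the difference was the same 1.61, but the limma adjusted p was 0.329, and 0.0% of genes were called (0 of 18193, with 2367 at an unadjusted p under 0.05).

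Csf1r encodes the receptor of CSF1 and IL-34, on which microglia depend. Its gene median was 7.99 and 9.31 in the Balb/c pools of 100, 8.16 in the pool of 200, and 9.63 and 8.43 in the pools of 400. In C57BL/6 it ran from 6.71 to 7.90 with a median of 7.27. The strains did not overlap in the gene median, which held for 1 of the 10 markers and for 1.21% of all genes. In each of its 3 probe sets taken alone the strains did overlap. The gene median averaged 8.71 ± 0.73 in Balb/c (SD, n = 5) and 7.33 ± 0.40 in C57BL/6 (SD, n = 14). The difference was 1.38 (SE 0.27, limma adjusted p = 0.000956), or 1.16 relative to the median gene. It was 1.19 and no longer passed with the format block (limma adjusted p = 0.0669), and without the 3 arrays it was 1.59 (limma adjusted p = 0.000211).

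The 3 probe sets of Csf1r had differences of unlike size. Probe set 1419872_at differed by 2.14 (SE 0.39, limma adjusted p = 0.000631 over all probe sets), with 11.34, 9.09, 8.16, 9.63 and 8.43 in the Balb/c arrays in the order given above and 6.35 to 8.41 in C57BL/6. Here 4 of 5 Balb/c arrays lay above every C57BL/6 array. Probe sets 1419873_s_at and 1423593_a_at differed by 1.12 (limma adjusted p = 0.0587) and 0.81 (limma adjusted p = 0.0808) and did not pass. The first of them passed without Balb/c 100-1 (1.39) and without C57BL/6 100-2 (1.23), 200-1 (1.20) or 400-1 (1.27), and the second without Balb/c 200-1 (1.10) or 400-2 (1.02). The array that was highest was not the same for each. Balb/c 100-1 was the highest of the 5 Balb/c arrays for 1419872_at and the lowest for 1419873_s_at at 7.99. Over the 14 C57BL/6 arrays the 3 pairs of these probe sets correlated at r = 0.08 to 0.50.

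Cx3cr1 encodes the receptor for the neuronal chemokine CX3CL1. Its gene median was 9.67, 9.07, 9.29, 9.12 and 9.22 in Balb/c and ran from 8.51 to 10.10 in C57BL/6 with a median of 9.03. The Balb/c arrays lay inside the range of C57BL/6. The difference was 0.24 (95% interval -0.23 to 0.72, limma adjusted p = 0.415), or 0.03 relative to the median gene, and with the format block it turned to -0.12. The 2 probe sets had values far apart on every array, with means of 12.15 ± 0.21 in Balb/c and 11.68 ± 0.30 in C57BL/6 for 1450020_at, and of 6.41 ± 0.42 and 6.38 ± 0.89 for 1450019_at in the same strains. Probe set 1450020_at differed by 0.47 (95% interval 0.02 to 0.92) with all 5 Balb/c arrays above the mean of C57BL/6. It did not pass (limma adjusted p = 0.0956), but it passed by the methods' t-test on the same arrays, after adjustment over all probe sets, and without the 3 arrays between the strains, at 0.57 (limma adjusted p = 0.0342). Probe set 1450019_at differed by 0.02. They correlated at r = -0.43 over the 14 C57BL/6 arrays, so the gene median averaged measurements that did not follow each other. The highest C57BL/6 value of the gene, in 100-1, went with a reading of 8.61 in 1450019_at.

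Trem2 encodes a lipid-sensing receptor of myeloid cells, and Tyrobp encodes DAP12, the adaptor through which TREM2 signals. The gene median of Trem2 was 8.28, 9.27, 7.81, 7.83 and 8.70 in Balb/c and ran from 6.93 to 8.98 in C57BL/6 with a median of 7.72. The strains overlapped, with 1 Balb/c array above all C57BL/6 arrays. The difference was 0.56 (SE 0.28, limma adjusted p = 0.132), or 0.34 relative to the median gene. With 1 array left out it ran from 0.34, without Balb/c 100-2, to 0.70, without Balb/c 200-1. Without the 3 arrays it was 0.79 and passed (limma adjusted p = 0.0274), among 43.6% of all genes called in that fit. The format block gave 0.12 (limma adjusted p = 0.871).

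The 2 probe sets of Trem2 differed from each other. Probe set 1421226_at was higher in Balb/c by 1.16 (SE 0.41, limma adjusted p = 0.0343), with 9.07, 11.35, 9.38, 8.02 and 8.44 in Balb/c and 7.39 to 9.33 in C57BL/6. Its call was lost without Balb/c 100-2, where the difference was 0.63, and without Balb/c 200-1, where it was 1.13. Probe set 1421792_s_at differed by -0.04 (95% interval -0.93 to 0.86). Their correlation over the 14 C57BL/6 arrays was r = -0.02. Within C57BL/6 1421226_at averaged 8.84 ± 0.57 in the 4 long-format arrays and 7.80 ± 0.32 in the 10 short-format arrays, a gap of 1.04 in the same direction as the strain difference, and with the format block the strain difference was 0.42 (limma adjusted p = 0.638).

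Tyrobp had a lower mean in Balb/c. Its values in Balb/c were 8.63 and 7.30 in the pools of 100, 10.37 in the pool of 200, and 8.42 and 10.32 in the pools of 400. In C57BL/6 they ran from 7.54 to 10.80 with a median of 10.20. Of the Balb/c arrays 1, at 7.30, lay below the C57BL/6 range and the other 4 lay inside it, and the lowest C57BL/6 values were those of 200-3 at 7.54 and 200-2 at 9.16. The mean was 9.01 ± 1.32 in Balb/c (SD, n = 5) and 9.92 ± 0.82 in C57BL/6 (SD, n = 14). The difference of -0.91 (SE 0.46, limma adjusted p = 0.129) did not pass, and relative to the median gene it was -1.12. It passed when Balb/c 200-1 was left out, at -1.25, and when C57BL/6 200-3 was left out, at -1.09, so a single array on either side decided this call. Without Balb/c 100-2 it was -0.48, the value nearest to 0 of the 19 fits that each left out an array. In the pools of 100 dendrites alone, 2 of Balb/c against 4 of C57BL/6, it was -2.03 (limma adjusted p = 0.0322), with 11.5% of all genes called in that fit. Itgam was the other marker called there, at 2.40 (limma adjusted p = 0.0232).

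**Figure D2:**
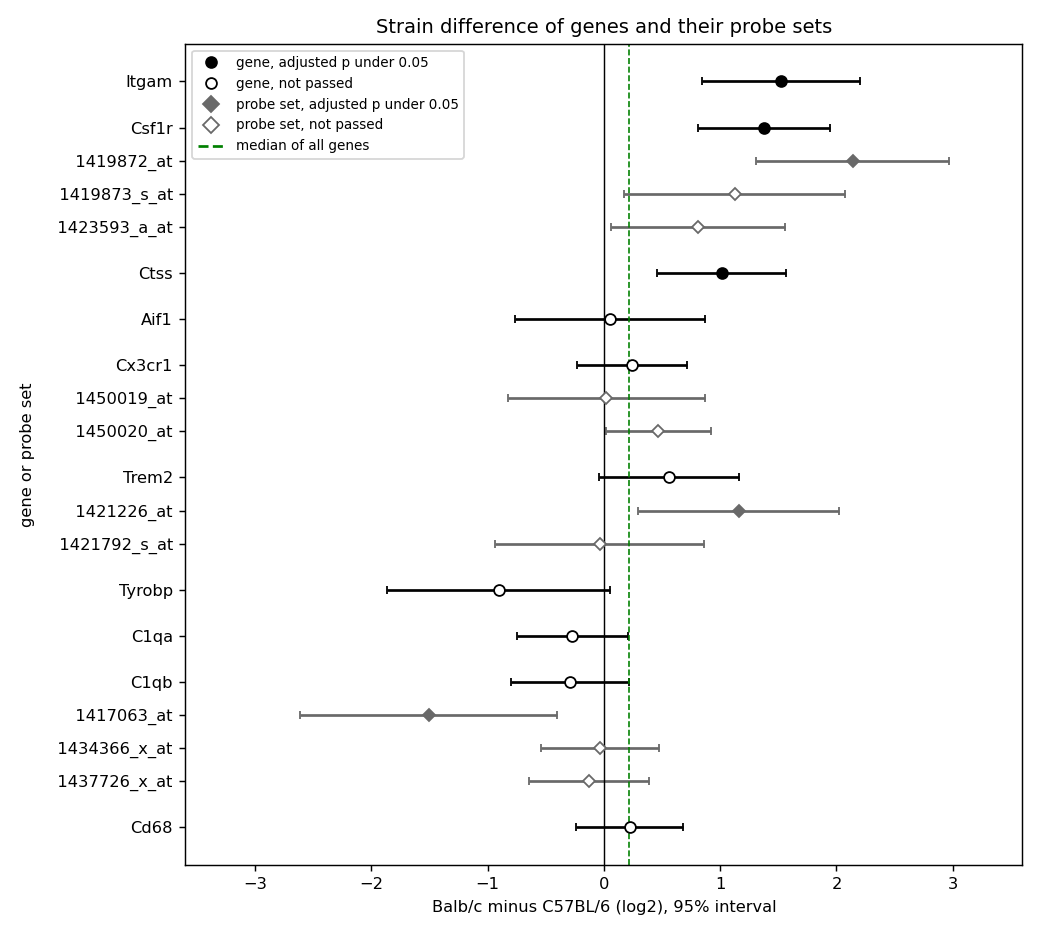
Balb/c minus C57BL/6 difference (log2, horizontal axis) with its 95% interval for each marker gene (circles) and, for genes with several, each probe set (diamonds). Filled symbols passed an adjusted p of 0.05, and the dashed line is the median of all genes at 0.216. Itgam, Csf1r and Ctss lie to its right, and the 1417063_at probe set of C1qb lies furthest left.

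Among secreted and lysosomal products, Ctss encodes cathepsin S, a protease of macrophage lysosomes. Its values in Balb/c were 7.44 and 6.10 in the pools of 100, 6.51 in the pool of 200, and 7.73 and 7.21 in the pools of 400. In C57BL/6 they ran from 5.23 to 6.87 with a median of 5.99. Of the Balb/c arrays 3 lay above every C57BL/6 array. The mean was 7.00 ± 0.67 in Balb/c (SD, n = 5) and 5.99 ± 0.41 in C57BL/6 (SD, n = 14), a difference of 1.01 (SE 0.26, limma adjusted p = 0.00649) or 0.80 relative to the median gene. The highest C57BL/6 value was in 400-1, one of the arrays between the strains. Without those 3 arrays the difference was 1.23 (limma adjusted p = 0.00107). It was 0.88 with the format block and did not pass (limma adjusted p = 0.146).

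C1qa and C1qb encode the A and B chains of C1q, the recognition molecule of the classical complement pathway. C1qa was 6.63, 5.11, 6.03, 5.70 and 6.25 in Balb/c and ran from 5.63 to 6.73 in C57BL/6 with a median of 6.19. The gene median of C1qb was 6.63, 6.14, 5.66, 6.42 and 6.26 in Balb/c and ran from 5.61 to 7.15 in C57BL/6 with a median of 6.61. The strains overlapped for both chains. The differences were -0.27 for C1qa (limma adjusted p = 0.37) and -0.29 for C1qb (limma adjusted p = 0.362), or -0.49 and -0.51 relative to the median gene. With 1 array left out, C1qa ran from -0.44, without Balb/c 100-1, to -0.06, without Balb/c 100-2, and C1qb from -0.39, without Balb/c 100-1, to -0.15, without Balb/c 200-1.

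For C1qb the choice of probe set mattered. Probe set 1417063_at was lower in Balb/c, at 6.63, 6.10, 5.35, 4.75 and 5.21 in Balb/c against 5.61 to 9.85 in C57BL/6 with a median of 6.83. Every Balb/c array was under the mean of C57BL/6, and 3 were under its lowest array. The difference was -1.51 (SE 0.52, limma adjusted p = 0.0317). It did not pass without Balb/c 200-1 (-1.44), 400-1 (-1.29) or 400-2 (-1.41). Probe sets 1434366_x_at and 1437726_x_at, whose suffix marks probes that may bind other transcripts, differed by -0.03 and -0.13 and did not pass. The 2 highest C57BL/6 values of 1417063_at, 9.85 and 9.11, were in 100-1 and 100-2, both of the long format, and the 2 lowest, 5.61 and 5.77, were in 400-1 and 200-1, also of the long format. The format block gave -1.98 (limma adjusted p = 0.103).

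Over all 16 marker probe sets, 5 were called, 4 higher in Balb/c and 1 lower, beside 32.9% of the 45037 probe sets. Blocking on the number format left 1 of the 16 called, Csf1r 1419872_at at 2.08 (limma adjusted p = 0.0421), beside 1.87% of all probe sets, while the single probe set of Itgam was called in the fit over genes but not in that over probe sets.

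The summary of several probe sets also set which genes were called. With the probe set of the highest mean in place of the gene median, 4 of 10 markers were called, beside 34.6% of all genes. Csf1r was then 1.12 and no longer passed (limma adjusted p = 0.0589), while Trem2 at 1.16 (limma adjusted p = 0.034) and C1qb at -1.51 (limma adjusted p = 0.0323) passed. With probe sets of the suffixes _x_at, _s_at and _a_at left out, 5 of 9 markers were called, beside 31.7% of all genes, and the 2 gained were again Trem2 at 1.16 and C1qb at -1.51.

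Leaving out the 3 arrays between the strains gave 4 of 10 markers called, Trem2 beside Itgam, Csf1r and Ctss, and 8 of 16 marker probe sets, beside 43.6% of all probe sets as of all genes. Tyrobp was then -1.22 (limma adjusted p = 0.0532), C1qa -0.31, C1qb -0.27, Cx3cr1 0.25, Cd68 0.25 and Aif1 0.11, and none of these 6 genes passed. Csf1r 1419872_at was 2.53 (limma adjusted p = 8.15e-05), 1419873_s_at 1.40 (limma adjusted p = 0.0137) and 1423593_a_at 1.12 (limma adjusted p = 0.0178). Trem2 1421226_at was 1.33 (limma adjusted p = 0.0151) and C1qb 1417063_at was -1.68 (limma adjusted p = 0.0189). The probe sets that were called over all 19 arrays were thus called in this fit too, and 3 more were added.

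Aif1 encodes IBA1, an actin-binding protein used to stain microglia, and Cd68 encodes a lysosomal membrane protein of macrophages. Aif1 was 5.98, 5.11, 5.14, 5.05 and 5.31 in Balb/c and ran from 3.58 to 6.78 in C57BL/6 with a median of 5.38. Its C57BL/6 values spread over more than 3 log2 units, and all Balb/c values lay among them. The difference was 0.05 (95% interval -0.76 to 0.87), and its sign turned after quantile normalization (-0.06) and after median centring and range scaling (-0.15). Cd68 was 5.84, 5.56, 5.64, 5.35 and 5.56 in Balb/c and ran from 4.65 to 6.00 in C57BL/6, with a difference of 0.22 (95% interval -0.24 to 0.68), which is 0.01 relative to the median gene. Both genes were at low values on nearly every array. Among the genes of an array, Cd68 had a percentile of 8.92 to 16.2 in Balb/c and of 4.16 to 27.1 in C57BL/6, and Aif1 had a median percentile of 7.86 in Balb/c and 9.20 in C57BL/6. Such a rank depends on the probes as well as on the transcript, so it is a place in the signal of an array and not a level set against other genes.

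On the same ranks Itgam had a median percentile of 68.1 in Balb/c and 33.5 in C57BL/6, Csf1r 82.6 in Balb/c and 63.3 in C57BL/6, and Ctss 58.0 in Balb/c and 25.2 in C57BL/6. Tyrobp stood at 86.0 in Balb/c and 95.3 in C57BL/6, and it was among the top 5% of genes on 10 of the 19 arrays. C1qa and Cd68 stayed below the 50th percentile on all 19 arrays.

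**Figure D3:**
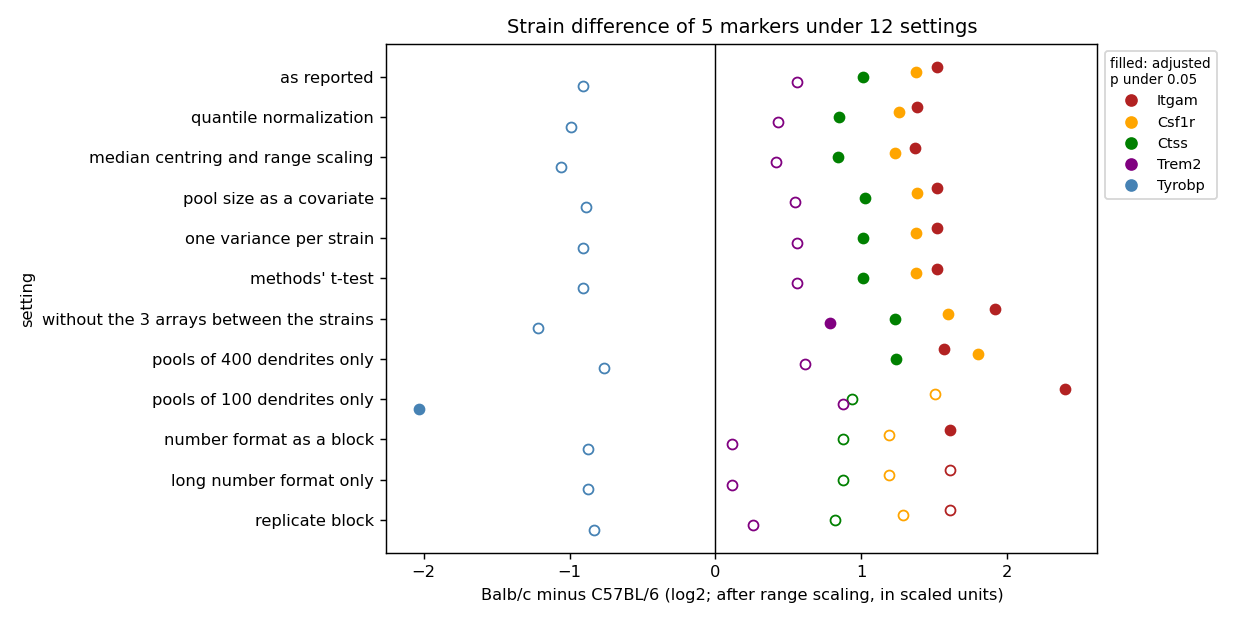
Balb/c minus C57BL/6 difference (log2, horizontal axis) of Itgam, Csf1r, Ctss, Trem2 and Tyrobp under 12 settings (vertical axis), with filled points where the adjusted p over all genes was under 0.05. Itgam, Csf1r and Ctss lie right of 0 and Tyrobp left of 0 under all 12. In the fit that blocks on number format only Itgam is filled, and in pools of 100 dendrites only Itgam and Tyrobp. None of these genes is filled with the long format only or with the replicate block.

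Pools held 100, 200 or 400 dendrites, and the next comparison asked whether the markers moved with that number. A slope per doubling of dendrites was fitted over the 19 arrays with strain as a covariate. None of the 10 markers passed, and 0.0% of all genes did (0 of 18193 by limma, with 850 at an unadjusted p under 0.05). Slopes of the markers ran from -0.29 for Aif1 (95% interval -0.72 to 0.13) to 0.28 for Tyrobp (95% interval -0.24 to 0.79), and Ctss had 0.25 (95% interval -0.04 to 0.53). No gene median of a marker had an unadjusted p under 0.05, where the smallest was 0.0801 for Ctss. With the probe set of the highest mean, C1qb had a slope of -0.75, with an unadjusted p under 0.05, and did not pass after adjustment (limma adjusted p = 0.951). The 95% interval of the slope was -0.38 to 0.37 for Itgam and -0.23 to 0.39 for Csf1r.

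The order of the 6 conditions differed between the markers. Itgam averaged 5.82 ± 0.53, 6.38 ± 0.22 and 6.09 ± 0.57 in C57BL/6 pools of 100, 200 and 400 dendrites, and the 3 Balb/c conditions, with 8.22 ± 0.89 at 100, 6.43 in the single pool of 200 and 7.66 ± 0.91 at 400, lay above them. The Balb/c pool of 200 and the C57BL/6 pools of 200 differed by less than their SD. Csf1r and Ctss also had all 3 Balb/c conditions above all 3 C57BL/6 conditions. The Balb/c means of Csf1r were 8.65 ± 0.94, 8.16 and 9.03 ± 0.85 at 100, 200 and 400 dendrites, and those of C57BL/6 were 7.15 ± 0.44, 7.57 ± 0.35 and 7.23 ± 0.38. For C1qa the order was turned, with the 3 C57BL/6 means of 6.15 to 6.25 above the 3 Balb/c means of 5.87 to 6.03, all within the SD of their neighbours. In the pools of 400 dendrites alone, 2 of Balb/c against 5 of C57BL/6, the same 3 markers were called as over all arrays, beside 17.0% of all genes, with 1.57 for Itgam (limma adjusted p = 0.0486), 1.80 for Csf1r (limma adjusted p = 0.0193) and 1.24 for Ctss (limma adjusted p = 0.0497).

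The slopes were also compared between the strains. None of the 10 markers had a slope that differed (0.0% of all genes, 0 of 18193 by limma, with 690 at an unadjusted p under 0.05). Among gene medians the largest difference in slope was 0.62 for Tyrobp (95% interval -0.49 to 1.72), followed by Itgam at -0.40 (95% interval -1.20 to 0.41). With the probe set of the highest mean the difference of Trem2 was -0.98, the largest of the 10 in that fit, with an unadjusted p under 0.05, and did not pass after adjustment. With 5 Balb/c arrays these intervals are wide.

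**Figure D4:**
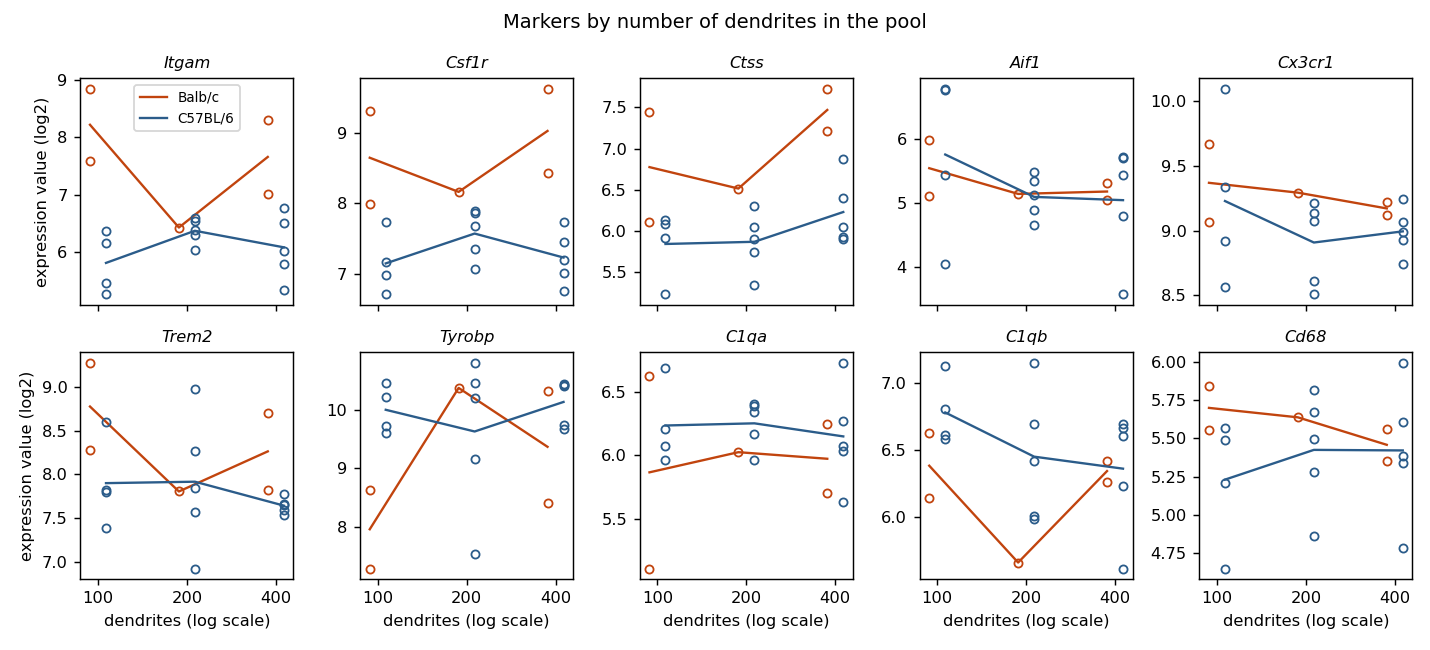
Log2 expression value (vertical axis) of each marker against the dendrites in the pool (horizontal axis, log scale), with 1 point per array and lines through the means of Balb/c and C57BL/6. The Balb/c line of Itgam, Csf1r and Ctss lies above that of C57BL/6 at 100, 200 and 400 dendrites, where the Balb/c pool of 200 is a single array, and no marker had a slope that passed the test.

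Variation of the markers among themselves was examined over the 14 C57BL/6 arrays. The 45 pairs of markers had a median Pearson r of 0.11 and ran from -0.69 to 0.52, and 62.2% of the pairs were above 0. Any marker with any gene had a median r of 0.04, and 54.7% were above 0. After Benjamini-Hochberg adjustment over the 45 pairs, 0 passed 0.05 by permutation of r, and 2 had an unadjusted p under 0.05. Values of r thus lay on both sides of 0, and no pair was told apart from 0 after adjustment.

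Trem2 with Tyrobp and C1qa with C1qb are pairs whose proteins act together. Itgam with Csf1r and Ctss with C1qb are further pairs given beside them. Trem2 and Tyrobp had the highest r of the 45, 0.52 (Spearman rho 0.38, permutation p = 0.0732 for r and 0.174 for rho, adjusted 0.453 for r and 0.795 for rho, n = 14). It was 0.76 without the 2 arrays farthest from the median of Trem2 and 0.53 without C57BL/6 200-1 and 400-1. C1qa and C1qb, chains of the same molecule, had r = 0.11 (Spearman rho 0.22, permutation p = 0.702 and 0.452, adjusted 0.871 and 0.881, n = 14). Itgam and Csf1r had r = 0.51 (Spearman rho 0.53, permutation p = 0.0624 and 0.0574, adjusted 0.453 and 0.654, n = 14). Their r was 0.12 without the 2 arrays farthest from the median of Itgam and 0.36 without C57BL/6 200-1 and 400-1. The lowest r, -0.69, was that of Ctss and C1qb (Spearman rho -0.35, permutation p = 0.00686 and 0.231, adjusted 0.309 and 0.795, n = 14), and it was -0.31 without the 2 arrays farthest from the median of Ctss.

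**Figure D5:**
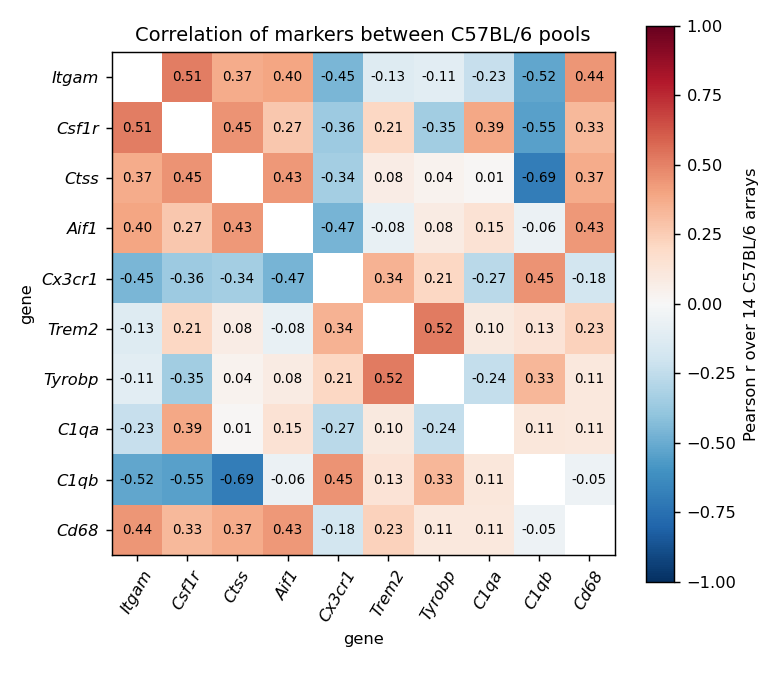
Pearson r of each pair of markers over the 14 C57BL/6 arrays, with genes on both axes, red above 0 and blue below 0. Trem2 with Tyrobp is the highest at 0.52 and Ctss with C1qb the lowest at -0.69.

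For each marker the gene with the most similar pattern over the 14 C57BL/6 arrays was taken from all 18193 genes. These were Hsd3b7 for Itgam (r = 0.91), Cga for Csf1r (r = 0.92), Cluh for Ctss (r = 0.93), Vps25 for Aif1 (r = 0.81), Gm26782 for Cx3cr1 (r = 0.88), Igdcc3 for Trem2 (r = 0.93), H2-Ob for Tyrobp (r = 0.99), Calml3 for C1qa (r = 0.85), Dglucy for C1qb (r = 0.93) and Cog5 for Cd68 (r = 0.81). In no case was the most similar gene another marker. The nearest other marker ranked between 887th, Cd68 for Aif1, and 2910th, Cx3cr1 for C1qb. Each of these genes was picked for its r out of 18193 over 14 arrays, and what r chance would give was not tested. The part of number format and pool size was not tested either.

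The ligands and partners of the markers were read in the same fit. Csf1 and Il34, the ligands of the CSF1 receptor, averaged 7.62 ± 0.44 and 5.61 ± 0.38 in Balb/c (SD, n = 5) and 7.34 ± 0.67 and 5.25 ± 0.49 in C57BL/6 (SD, n = 14). Cx3cl1, the ligand of CX3CR1, averaged 6.77 ± 0.36 in Balb/c and 6.78 ± 0.49 in C57BL/6. None of the 3 passed (limma adjusted p = 0.514, 0.289 and 0.986). Itgb2, the beta chain that pairs with the product of Itgam, averaged 7.51 ± 0.69 in Balb/c and 6.98 ± 0.94 in C57BL/6, a difference of 0.52 that did not pass (limma adjusted p = 0.353). C1qc, the third chain of C1q, averaged 8.92 ± 1.12 in Balb/c and 8.69 ± 0.91 in C57BL/6 (limma adjusted p = 0.731). The partners were thus not called where Itgam and Csf1r were.

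Of 63 measured genes in 5 further lists tied to microglia, 16 rose in Balb/c and 6 fell, or 34.9% called beside the 32.5% of all genes. Their median difference was 0.36, or 0.14 relative to the median gene. By list, that relative median was 0.11 for ligands, 0.29 for receptor signalling and 0.30 for other microglia and macrophage genes. It was -0.18 for complement genes and -0.41 for lysosomal genes. Of these 63 genes, 0 were called in either direction with the format block, beside 1.92% of all genes in that fit. Of 6 ligands 1 fell, Clu, a lipid-carrying chaperone also made by astrocytes, by 1.88 (limma adjusted p = 0.00243). Of 8 genes of receptor signalling 1 rose, Fcer1g, an adaptor of Fc receptors that like DAP12 carries a tyrosine activation motif, at 1.11 (limma adjusted p = 0.0111). Of 8 complement genes 2 rose, Serping1, the C1 inhibitor, at 1.05 and C1s1, a protease of the C1 complex, at 1.35.

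Lysosomal genes went both ways, with 45.5% called beside 32.5% of all genes. Of 11 measured, 2 rose, Ctsd, the aspartic protease cathepsin D, at 1.81 (limma adjusted p = 0.00102) and Cst7, a cystatin of immune cells, at 0.87, and 3 fell, Ctsl by 1.26, Cst3 by 1.09 and Lamp1 by 1.32. Ctsd, Ctsl and Lamp1 serve lysosomes of all cells, and Cst3 is secreted by many. Of 30 other microglia and macrophage genes 11 rose and 2 fell, or 43.3% called beside the 32.5% of all genes. Over all genes 21.1% rose and 11.4% fell. The median difference of the 30 was 0.52, or 0.30 relative to the median gene. Those that rose with the smallest p were Unc93b1, which escorts Toll-like receptors, at 1.41, Cd53, a tetraspanin of leukocytes, at 1.42, and Slc2a5, a fructose transporter, at 1.05. Mpeg1, a pore-forming protein of macrophages, fell by 0.95 and Siglech, a surface lectin of microglia, by 1.28. Genes of the macrophage lineage were thus called in both directions, with 11 up and 2 down among these 30. Leaving out 1 array ended the call of Ctsl in 2 of the 19 fits, of Cst7 in 2, of Lamp1 in 3, of Cst3 in 4, of Mpeg1 in 4, of Siglech in 3 and of C1s1 in 1 (without Balb/c 400-1), in each case a Balb/c array.

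Markers of other cell types moved in the same comparison. Of 11 neuronal genes 1 rose and 6 fell in Balb/c, beside the 21.1% of all genes that rose and the 11.4% that fell. With the format block 0 of the 11 rose and 3 fell, beside 1.92% of all genes called in that fit (118 higher and 232 lower). The mean level of the 11 neuronal genes ran from 6.68 to 8.31 in Balb/c and from 8.28 to 9.17 in C57BL/6. Of 10 astrocyte genes 0 rose and 2 fell, of 9 oligodendrocyte genes 4 rose and 0 fell, of 6 endothelial genes 2 rose and 0 fell, and of 6 lymphocyte genes 1 rose, Cd3e, a chain of the T cell receptor complex, at 0.67 (limma adjusted p = 0.0442), a call lost in 11 of the 19 fits without 1 array. With the format block no gene of the astrocyte, oligodendrocyte, endothelial and lymphocyte lists was called. The mean level of the 10 microglia markers ran from 7.10 to 7.47 in Balb/c and from 6.58 to 7.25 in C57BL/6. The part of these other lists, and of the 3′ to 5′ difference, in the marker results was not tested.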

How the data were processed

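The authors deposited 1 log2 value per probe set and array, taking the upper decile over a set's probes after RMA, whose version was 2.0 per the submitters' processing notes. That the scale is log2 follows from the range of the values, and the median centring and range scaling that the methods also name were not in them. Of 45101 probe sets, 64 controls were left out. A gene's value was the median over probe sets that carry its symbol alone in the platform annotation, checked against RefSeq by gene identifier. No filter on dim genes was used. Differences are Balb/c minus C57BL/6, fitted with limma 3.58.1 (R 4.3.3, lmFit and eBayes) over 19 arrays with strain as the only term, and adjusted by Benjamini-Hochberg over all genes or probe sets at 0.05. Pool size was a slope per doubling with strain as covariate, and an interaction. Intervals of 95% used the residual degrees of freedom among arrays (17 for strain, 16 for slopes, 15 for interactions). Correlations used 100000 permutations (numpy 2.4.6). Scripts were tested on simulated data. Alternatives were scaling, number format, pool size, probe set choice, a dim filter, the variance model, leaving out arrays, and replicate number. All 10 markers and their probe sets are named, with up to 3 genes by p in each direction of the lists tied to microglia and of the lymphocyte list, the ligands Csf1, Il34 and Cx3cl1, and the partners Itgb2 and C1qc. Members and lists were chosen with earlier results of these data known.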

Additional observations from a re-analysis of the deposited data

Results flagged for a closer look

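Aif1 in Balb/c 100-1 read 5.98, while the other 4 Balb/c arrays lay between 5.05 and 5.31. It stood out because its gap to the nearest array took up 0.726 of the range of the 5 arrays, above Dixon's 95% critical value of 0.71. It was 1 of 40 sets of a marker and a group examined, and chance gives about 1 in 20.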

How the results depend on the processing

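Itgam, Csf1r and Ctss kept their direction under all alternatives that measured them and stayed called, as gene medians, after quantile normalization, after centring and range scaling, with pool size as a covariate, with one variance per strain, by the methods' t-test and without each of the 19 arrays. Over the 19 fits that each left out an array, 4093 to 6694 genes were called between the strains, or 22.5% to 36.8% of all genes. Beside these, 3 to 4 of 10 markers were called. Of 16 marker probe sets 4 to 6 were called, beside 22.4% to 37.3% of all probe sets. In such fits 0 were called for the pool size slope of all genes and of the markers and for the interaction of the markers. Blocking on the number format left 350 genes, 1 marker and 1 marker probe set called (1.92% of all genes and 1.87% of all probe sets), and the long format only gave 0, 0 and 0. With dim features left out the counts were 3395, 1 and 2 (4 markers and 7 probe sets were bright enough to be tested, and 37.3% of genes and 38.7% of probe sets were called). The 4 markers were Csf1r, Cx3cr1, Trem2 and Tyrobp, of which Csf1r was called. Itgam and Ctss were too dim to be tested in that fit. Without probe sets marked _x, _s or _a 5 of 9 markers were called, beside 31.7% of 16591 genes, with Trem2 (1.16) and C1qb (-1.51) gained. The probe set of the highest mean gave 4 of 10, beside 34.6% of genes, with the same 2 gained and Csf1r lost. Pools of 100 dendrites gave 2085 genes and 3 marker probe sets (11.4% of all probe sets), pools of 400 gave 3093 and 1 (17.2%). One variance per strain gave 3 marker probe sets (22.8%), and leaving out the 3 arrays between the strains gave 8 (43.6%). Centring arrays on their median gene, and the alternatives run on probe sets, were chosen after seeing the data.

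Same pool size and replicate number did not pair arrays across strains, since their deviations correlated at -0.19 to 0.07. With that replicate block over 5 pairs 0 genes, 0 markers and 0 marker probe sets were called (3331 genes at an unadjusted p under 0.05), and Itgam differed by 1.61. A lone array of a pool size is assumed to vary like the others. 

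Differences near 0 changed sign, and the cause was not tested. Aif1 was -0.0626, -0.153 and -0.0946 after quantile normalization, range scaling and centring on the median gene, -0.21 in pools of 100, and -0.11 to 0.17 with an array left out. With the format block, and within the long format only, Cx3cr1 was -0.12, Csf1 -0.55, Cx3cl1 0.0262 and C1qc -0.29, and with the replicate block these were -0.0503, -0.473, 0.0184 and -0.414. In pools of 100 Csf1 was -0.26 and C1qc -0.72, and in pools of 400 Cx3cl1 was 0.0521. With an array left out Cx3cl1 ran from -0.145 to 0.0973 and C1qc from -0.0367 to 0.585.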
